A study of Mus musculus with 2 samples.

Results

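RNA-seq values of 102 genes of endosomal sorting were compared between the second polar body (PB2), the small cell given off at fertilisation, and its zygote. The genes were taken by symbol from the 11262 genes of the deposited table, as the Vps, Snx, Chmp and Wash families, the adaptor (AP) subunits other than the α subunits of AP-2, the clathrin chains, the epsins and 7 single genes (Hgs, Stam, Stam2, Tsg101, Pdcd6ip, Vta1 and Eea1). The rule for the choice reads symbols and no value, and it was written with earlier results of these data known. Both libraries came from untreated embryos labelled C57BL/6 (C57BL/6N in the study's methods) at the late 1-cell stage, cultured in KSOM medium, from which the zona pellucida was dissolved and PB2 was detached by trypsin and pipetting. Each library is a pool of many PB2s or zygotes whose mRNA was amplified as full-length cDNA. There was 1 library of each kind, so the spread between samples is unknown, no test was possible, and each difference describes these 2 libraries.

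The endosome is the station at which a cell decides whether a protein taken up from its surface is recycled or destroyed. Clathrin and its adaptors collect cargo into vesicles, sorting nexins and the retromer coat return receptors to the surface or the Golgi, and ESCRT complexes fold ubiquitinated cargo into the endosome for delivery to the lysosome, a fusion for which the HOPS tether is needed. ESCRT-III also cuts the thin membrane bridge between daughter cells at the end of division, and a bridge of that kind, the mid-body, joins PB2 to the zygote. In the zygote this machinery handles membrane proteins inherited from the oocyte.

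Values are TPM, in which reads are divided by transcript length and scaled to a fixed total per library, so levels can be set side by side between genes and a difference between libraries is one of proportions. Total RNA per PB2 or zygote was not measured, and in pooled material a smaller share of some cells and less RNA per cell cannot be told apart. The log2 ratio given for each gene is log2((PB2 TPM + 1)/(zygote TPM + 1)), which is above 0 for genes higher in PB2, and its pseudocount of 1 understates the change of genes of a few TPM. Statements of 2-fold refer to this log2 ratio, adjusted where stated, and not to the plain ratio of TPM. Where values follow each other without a label, the zygote comes first. A gene was compared if it had at least 1 TPM in either library. TPM was deposited to 1 decimal and carries no read number, so depth is unknown. All 11 oocyte markers looked up were present, at 99.5 TPM or more in PB2 and 90.9 TPM or more in the zygote. Of 12 markers of cumulus and granulosa cells, the somatic cells around the egg, 3 were in the table (Cyp19a1, Kitl and Fshr), with 78.9 TPM in all in PB2 and 80.7 TPM in the zygote. Of 6 sperm and male germ cell markers 2 were in the table, with 22.6 (PB2) and 20.8 TPM (zygote) in all. The other markers were not analysed here.

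The 102 genes together had 4198 (PB2) and 4207 TPM (zygote), 0.420% and 0.421% of a full library, so their summed share was nearly equal in both. Of these genes 97 reached 1 TPM in PB2 and 93 in the zygote, 92 of them in both, and 4 reached it in neither (Ap3b2, Snx10, Snx21 and Washc1). At 100 TPM or more stood 16 genes in PB2 and 12 in the zygote. Of the 98 genes compared, 65 (66.3%) had a higher TPM in PB2, 30 (30.6%) in the zygote and 3 were equal. The table's own shares were 59.2% towards PB2 and 40.0% towards the zygote, and the tallies of direction given for classes are to be read against these shares. Past 2-fold towards PB2 lay 17 genes, 17.3%, where the share among the 10645 compared genes of the table was 18.9%. Past 2-fold towards the zygote lay 5 genes, 5.10%, where it was 8.09%. Their median log2 ratio was 0.35, against 0.21 for all genes. The counts of both directions lay near those of the table at large, and what follows concerns which members stood where.

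The balance between the directions depended on the scale. With log2 ratios centred on the median of all genes compared, 11 members (11.2%) passed 2-fold towards PB2, the table's share being 13.0%, and 10 (10.2%) towards the zygote, the table's share being 12.1%. After removal of the length trend 8 members (8.16%) passed it towards PB2, with 12.1% in the table, and 12 (12.2%) towards the zygote, with 11.7%.

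**Figure D1:**
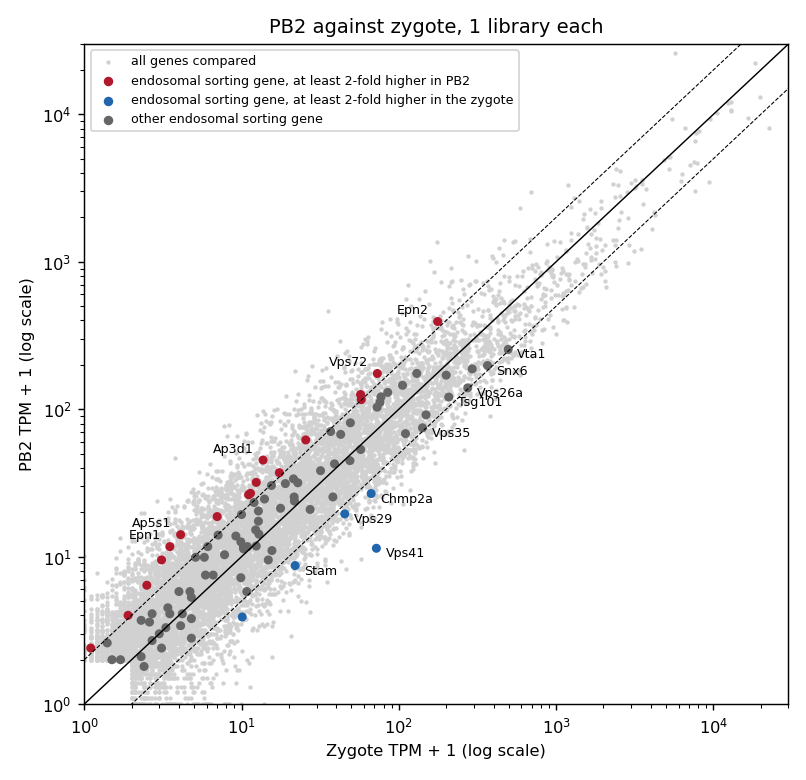
TPM + 1 in PB2 (vertical, log scale) against TPM + 1 in the zygote (horizontal, log scale) for the genes compared, 1 library each. Each point is 1 gene, the solid line marks equal values and the dashed lines 2-fold. The coloured endosomal sorting genes spread around the line of equality, with 17 past the upper and 5 past the lower dashed line, and Vps41 lies farthest from the line.

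The members farthest apart differed in base composition. Vps41, a subunit of the HOPS tether, was the member highest in the zygote relative to PB2, with 71 (zygote) and 10.4 TPM (PB2), a log2 ratio of -2.66. Only 13 of the 10645 genes compared were farther towards the zygote. At the other end Ap5s1, the σ subunit of the adaptor AP-5, had 3.1 (zygote) and 13.1 TPM (PB2), a log2 ratio of 1.78. To show the difference in base composition beside these values, the middle 60 bases of the coding sequence are printed for the 4 members with the highest and the 4 with the lowest log2 ratios, 5′ to 3′ on the coding strand, from the longest protein-coding transcript in GENCODE M21 (GRCm38), with every G and C in capitals. The 4 highest in PB2 come first.
Ap5s1: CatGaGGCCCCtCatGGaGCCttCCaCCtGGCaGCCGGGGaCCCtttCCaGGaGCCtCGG
Epn1: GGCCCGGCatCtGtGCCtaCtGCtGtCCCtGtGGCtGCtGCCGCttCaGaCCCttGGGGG
Ap3d1: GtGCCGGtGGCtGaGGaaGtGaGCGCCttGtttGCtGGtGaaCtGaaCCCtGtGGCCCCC
Vps52: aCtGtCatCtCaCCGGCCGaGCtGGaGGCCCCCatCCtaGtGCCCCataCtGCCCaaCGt
The 4 highest in the zygote follow.
Vps41: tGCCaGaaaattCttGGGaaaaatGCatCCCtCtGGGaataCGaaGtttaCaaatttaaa
Stam2: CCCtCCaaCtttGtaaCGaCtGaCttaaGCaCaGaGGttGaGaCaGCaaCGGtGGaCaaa
Stam: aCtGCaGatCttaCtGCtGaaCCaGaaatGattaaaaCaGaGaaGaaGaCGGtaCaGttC
Chmp2a: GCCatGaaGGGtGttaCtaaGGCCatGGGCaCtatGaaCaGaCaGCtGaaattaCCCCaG
Of the 60 bases, 41 were G or C in Ap5s1 and in Epn1 and 38 in Ap3d1 and in Vps52. In the other 4 the number was 21 in Vps41, 29 in Stam2, 24 in Stam and 30 in Chmp2a. All 8 stretches are coding. That of Ap5s1 lies in exon 3 of 3 at chr2:131212541-131212600 on the plus strand and that of Vps41 in exon 16 of 29 at chr13:18839652-18839711, also on the plus strand. The stretches of Epn1 (chr7:5095023-5095082, exon 8), Ap3d1 (chr10:80716506-80716565, minus strand, exon 15) and Vps52 (chr17:33961173-33961232, exon 11) also lie within 1 exon each. Those of Stam2 and Stam cross from exon 8 to exon 9 and that of Chmp2a from exon 3 to exon 4.

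Over the 98 members the log2 ratio moved with the GC content of the whole transcript. Spearman's rho between them was 0.53, and it was 0.44 for 10606 genes of the whole table, in both cases over genes of the same 2 libraries. In the 33 members with the lowest GC content, up to 45.6%, the median log2 ratio was -0.37, with 1 gene (3.03%) at least 2-fold higher in PB2 and 4 (12.1%) in the zygote, where all genes in that range of GC content had 4.49% and 14.9%. In the 33 with the highest, from 51.5%, it was 0.72, with 11 genes (33.3%) at least 2-fold higher in PB2 and 1 (3.03%), Chmp2a, in the zygote, where all genes in that range had 36.2% and 3.24%. All genes in these 2 ranges had medians of -0.20 and 0.71, so that both counts lay near those of the table at like GC content. After a loess trend on GC content was subtracted, 8 members (8.16%) passed 2-fold towards PB2, with 9.08% in the table, and 5 of them had passed it before. These 5 were Ap3b1, Ap3d1, Ap5s1, Pdcd6ip and Snx4. The other members past 2-fold in PB2 before fell below it: Vps52 (0.90), Vps33b (0.86), Epn2 and Snx19 (0.77 each), Epn1 (0.72) and Chmp1a (0.66). So did Snx11 (0.57), Vps37c (0.51), Vps72 (0.44), Vps9d1 (0.40), Ap1m1 (0.30) and Ap5z1 (0.25). Towards the zygote 6 members (6.12%) passed 2-fold, with 11.0% in the table, and 4 of them had passed it before. The part of base composition in the differences between PB2 and the zygote was not tested.

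**Figure D2:**
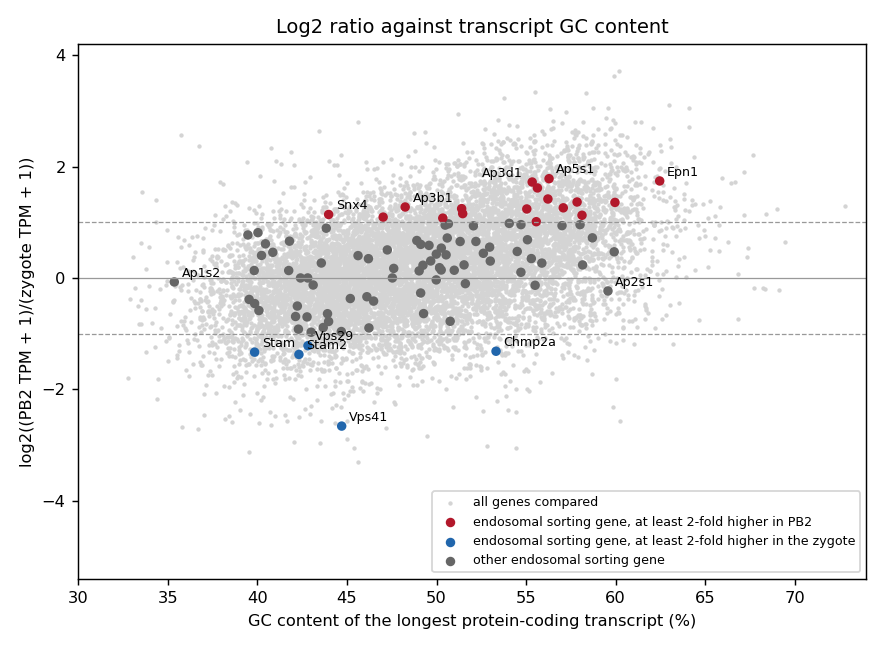
Log2 ratio (vertical) against the GC content of the longest protein-coding transcript in percent (horizontal), 1 point per gene. Members at least 2-fold higher in the zygote lie at 44.7% GC or less except Chmp2a at 53.3%, and those at least 2-fold higher in PB2 lie mostly above 50%, with Snx4 at 44.0% the lowest.

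Of the ESCRT machinery, ESCRT-0, which binds ubiquitinated cargo first, had both of its STAM transcripts higher in the zygote. Stam had 20.9 (zygote) and 7.7 TPM (PB2), and its paralogue Stam2 had 9.1 and 2.9 TPM. The log2 ratios were -1.33 and -1.37, so the paralogues differed between the libraries by a similar amount. Hgs, which encodes their partner HRS, had 20.6 (zygote) and 24.4 TPM (PB2), a log2 ratio of 0.23. A second Hgs entry in the annotation covers 97.2% of the exon bases of Hgs, so its value depends on how shared reads were counted. With the GC trend removed the log2 ratios were -0.99 for Stam, -1.17 for Stam2 and -0.64 for Hgs, so the direction of Hgs turned on that scale.

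ESCRT-I carries the cargo further and ESCRT-II links it to ESCRT-III. Tsg101, the ubiquitin-binding core of ESCRT-I, had 206.8 (zygote) and 119.9 TPM (PB2), a log2 ratio of -0.78. A processed pseudogene 97.9% identical over 60.3% of its transcript could take some of its reads. The 3 Vps37 genes, whose products are alternative subunits of the same complex, did not follow Tsg101. Vps37c had 11.4 (zygote) and 30.9 TPM (PB2), a log2 ratio of 1.36. Vps37b had 4.1 and 8.9 TPM, and Vps37a 20.7 and 22.8 TPM. The GC contents of Vps37c, Vps37b and Vps37a were 57.8%, 58.0% and 39.8%. Of Vps37b, 32.9% of the exon bases overlap Hip1r on the opposite strand. Hip1r had 1.9 (zygote) and 9.3 TPM (PB2), and whether its reads entered the value of Vps37b was not tested. Vps36, the only ESCRT-II gene of the table among the members, had 9.8 (zygote) and 4.8 TPM (PB2), a log2 ratio of -0.90.

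ESCRT-III forms the filament that constricts the membrane neck. Of its 7 members compared, 4 had a higher TPM in PB2 and 3 in the zygote. Their median log2 ratio was 0.50, and it was 0.04 with the GC trend removed and 0.19 over the genes with at least 5 TPM in either library. Their summed TPM was higher in the zygote, 490.5 against 391.8. Chmp2a, a late-acting subunit, had 65.7 (zygote) and 25.8 TPM (PB2), a log2 ratio of -1.32. Its GC content of 53.3% is above the table's median of 49.1%, and with the GC trend removed its log2 ratio was -1.84. Its paralogue Chmp2b had 47.9 and 43.8 TPM, so that Chmp2a was the higher of the pair in the zygote and Chmp2b in PB2. Chmp5, the most abundant ESCRT-III transcript in both libraries, had 291.7 (zygote) and 186.6 TPM (PB2). Chmp1a, another late-acting subunit, was the member of the class highest in PB2 relative to the zygote, with 6.0 and 17.7 TPM and a log2 ratio of 1.42. Chmp3 had 71.8 and 102.2 TPM and Chmp7, which recruits ESCRT-III to the nuclear envelope, 6.1 and 13 TPM. Chmp4b, the gene of the main filament subunit, was low in both, with 1.3 (zygote) and 2.7 TPM (PB2).

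The filament is remodelled by the ATPase VPS4 with its cofactor LIP5, the product of Vta1. Vta1 was the most abundant member in the zygote, where 2.35% of the table's genes had a higher TPM. It had 494.8 TPM there against 253.6 in PB2, with a log2 ratio of -0.96, just inside 2-fold. The ATPase genes were near equal between the libraries, with 56.2 and 52.3 TPM for Vps4a and 9.3 and 10.3 TPM for Vps4b, zygote first. Pdcd6ip, which encodes ALIX, an adaptor that brings ESCRT-III to membranes independently of ESCRT-I, was higher in PB2, with 16.4 (zygote) and 36.1 TPM (PB2), a log2 ratio of 1.09. Over the 19 members of the ESCRT classes, 3 passed 2-fold towards PB2 (Vps37c, Chmp1a and Pdcd6ip) and 3 towards the zygote (Stam, Stam2 and Chmp2a). Either count is 15.8% of the classes, where the table had 18.9% towards PB2 and 8.09% towards the zygote. With the GC trend removed Vps37c (0.51), Chmp1a (0.66) and Stam (-0.99) no longer passed 2-fold. The summed TPM of all 19 members was 966.4 in PB2 and 1371 in the zygote.

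The retromer coat returns receptors from the endosome. Its cargo-recognition trimer consists of the products of Vps26a, Vps29 and Vps35. Vps26a had 273.2 (zygote) and 138.6 TPM (PB2), Vps29 44.3 and 18.5 TPM, and Vps35 140.4 and 73.8 TPM. All 3 subunits were higher in the zygote, with log2 ratios of -0.97, -1.22 and -0.92, of which that of Vps29 passed 2-fold. Their sum was 457.9 (zygote) and 230.9 TPM (PB2).

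Retromer works with dimers of sorting nexins that bend the membrane through a BAR domain, SNX1 or SNX2 paired with SNX5 or SNX6. In both libraries Snx2 and Snx6 were the abundant genes of these pairs. Snx6 had 365.4 (zygote) and 196.8 TPM (PB2), and Snx2 had 147.9 and 90.7 TPM, so both lay on the same side as the trimer, with log2 ratios of -0.89 and -0.70. A transcribed processed pseudogene 99.1% identical over 26.3% of the Snx2 transcript could take some reads of Snx2. Snx1 had 3.0 and 4.8 TPM, and Snx5 2.1 and 1.4 TPM. Together the trimer, Snx2 and Snx6 had 971.2 (zygote) and 518.4 TPM (PB2). The transcripts of these 5 genes are alike in GC content, 42.3% to 43.7%, and with the GC trend removed their log2 ratios ran from -1.04 to -0.52.

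Retriever is a second recycling coat, in which VPS26C and VPS35L take the places of VPS26 and VPS35 around the shared VPS29. Vps26c had 11.8 (zygote) and 16.4 TPM (PB2), and Vps35l had 8.2 and 12.8 TPM. Their log2 ratios of 0.44 and 0.58 were on the other side of 0 from their retromer counterparts, though the ratio of Vps26c was -0.03 with the GC trend removed, while that of Vps35l was 0.34. Their transcripts have 52.6% and 49.6% GC. The WASH complex builds actin on endosomes and binds retromer. Its genes ran from 0.8 to 11.8 TPM in the zygote and from 0.6 to 19.4 TPM in PB2. The medians of the whole table were 8.7 (zygote) and 11.1 TPM (PB2). The most abundant WASH gene Washc2, which encodes the retromer-binding subunit, had 11.8 (zygote) and 19.4 TPM (PB2), a log2 ratio of 0.67. Washc4 had the lowest log2 ratio of the class, -0.46, with 8.9 and 6.2 TPM. Washc3 followed at -0.42, with 1.4 and 0.8 TPM. By the plain PB2/zygote ratio Washc3 was the lower of these, with 0.57 against 0.70. Washc1, which encodes the subunit that activates Arp2/3, had 0.8 and 0.6 TPM.

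**Figure D3:**
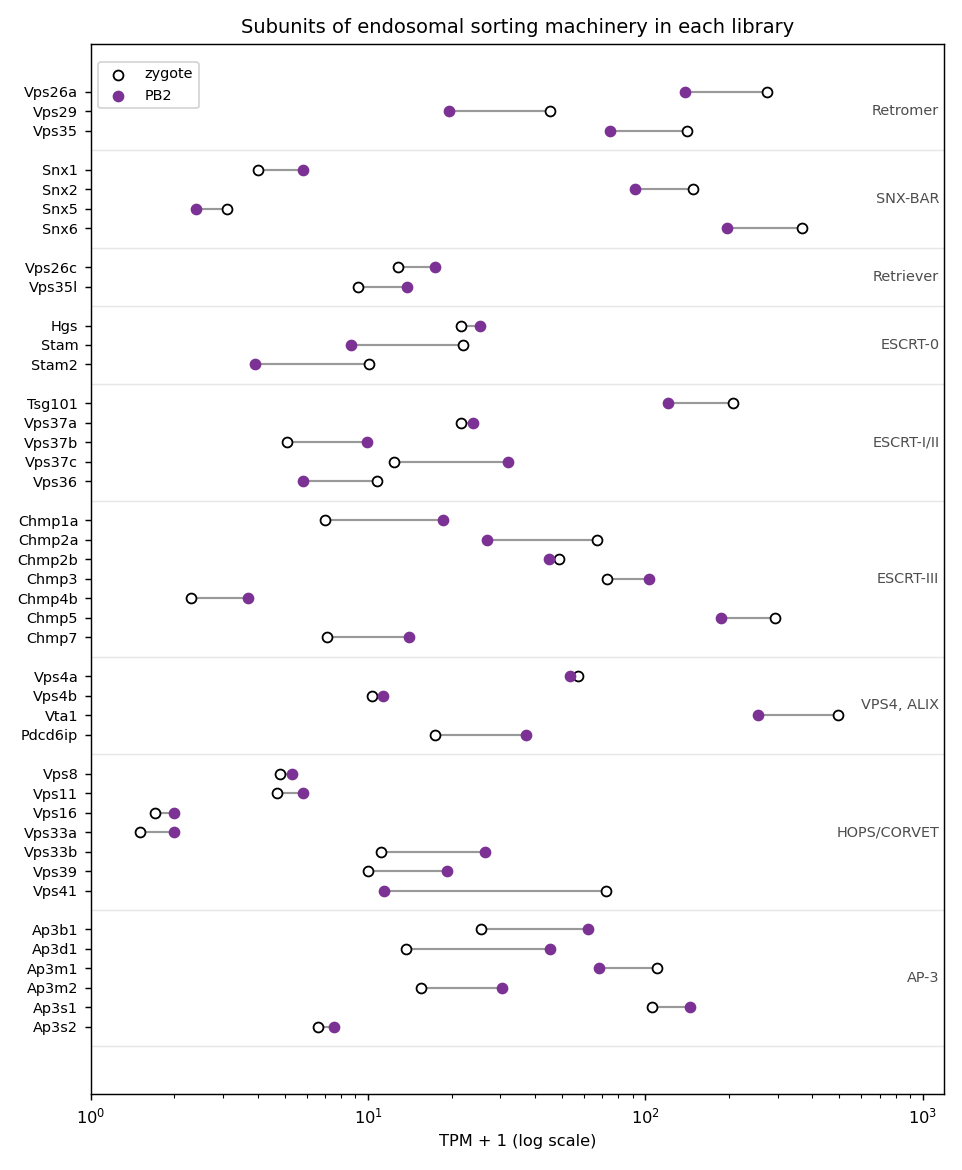
TPM + 1 (horizontal, log scale) of the subunits of retromer, its SNX-BAR partners, retriever, the ESCRT complexes, HOPS/CORVET and AP-3, with open circles for the zygote and filled circles for PB2, 1 library each. The 3 retromer subunits and Snx2 and Snx6 have the filled circle to the left of the open one, and Vps41 has the longest line.

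HOPS and CORVET tether membranes before fusion, HOPS at the late endosome and lysosome and CORVET at the early endosome, around a shared core that includes VPS11, VPS16 and VPS33A. Vps41, which is particular to HOPS, lies on chromosome 13 of GRCm38 from 18717286 to 18866811 on the plus strand. Its plain ratio of TPM between the libraries, 6.83-fold higher in the zygote, was not shared by its partners. Vps39, the other HOPS-specific subunit, had 9.0 (zygote) and 18.3 TPM (PB2), a log2 ratio of 0.95. Vps33b, a relative of Vps33a that forms a separate complex, had 10.1 and 25.3 TPM, a log2 ratio of 1.24. Core subunits were low, with 3.7 and 4.8 TPM for Vps11, 0.7 and 1.0 TPM for Vps16 and 0.5 and 1.0 TPM for Vps33a. The CORVET subunit gene Vps8 had 3.8 and 4.3 TPM. In the zygote Vps41 thus stood above the other 6 measured genes of the class, and in PB2 it was below Vps39 and Vps33b.

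The GARP and EARP tethers receive vesicles from endosomes at the Golgi and in recycling, and share VPS52 and VPS53. Vps52 had 2.1 (zygote) and 8.5 TPM (PB2), a log2 ratio of 1.62, while Vps53 had 3.8 and 1.8 TPM, a log2 ratio of -0.78, so the shared subunits differed in direction. Vps50, particular to EARP, was the most abundant, with 14.6 (zygote) and 10 TPM (PB2). Vps54, particular to GARP, had 2.4 and 3.5 TPM. Eea1, which tethers early endosomes through RAB5, had 41.7 (zygote) and 66.5 TPM (PB2), a log2 ratio of 0.66. Vps9d1, named for the domain of RAB5 activators, had 1.5 and 5.4 TPM, a log2 ratio of 1.36, and Vps45, a regulator of SNARE fusion at early endosomes, 3.2 and 3.1 TPM. The 4 Vps13 genes, whose very long products move lipids between membranes, stayed within 2-fold, from -0.58 for Vps13a (37.1 and 24.4 TPM) to 0.35 for Vps13b (4.9 and 6.5 TPM).

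**Figure D4:**
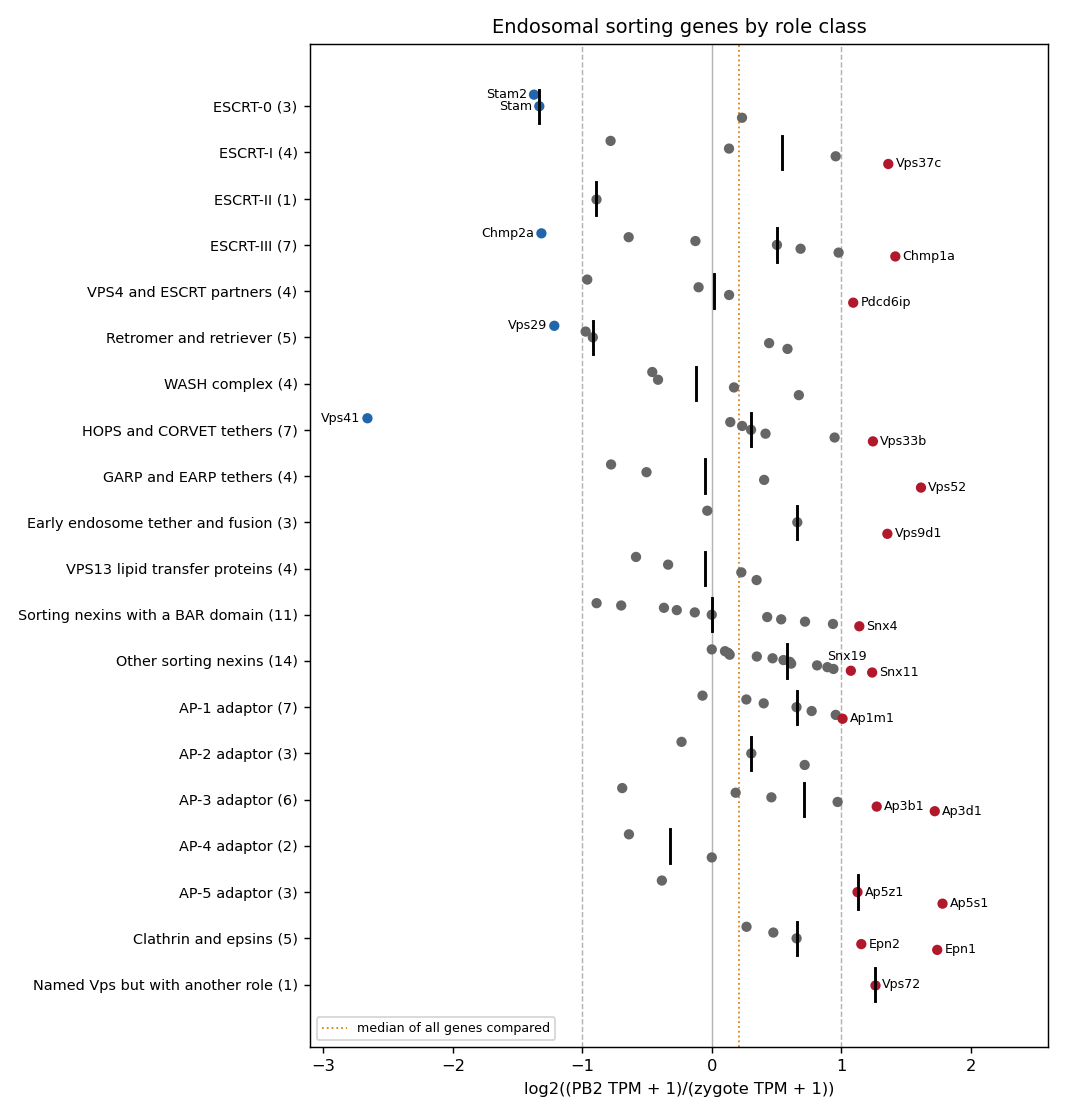
Log2 ratio (horizontal) of each of the 98 members compared, by role class (vertical, with the number of genes). Each point is 1 gene, the black bars are class medians, the dashed lines mark 2-fold and the dotted line marks the median of all genes compared. The genes past 2-fold are named, with Vps41 at -2.66 and Ap5s1 at 1.78 as the ends.

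Of 25 sorting nexins compared, 3 passed 2-fold towards PB2 and 0 towards the zygote, 12% and 0% where the table had 18.9% and 8.09%. Their median log2 ratio was 0.47, 0.26 when centred and 0.06 with the GC trend removed. Among the 11 with a BAR domain, 5 had a higher TPM in PB2, 5 in the zygote and 1 was equal. Snx4, which acts in recycling and autophagy, was the one past 2-fold, with 56.1 (zygote) and 124.8 TPM (PB2), a log2 ratio of 1.14. It was also the member past 2-fold in PB2 with the lowest GC content, 44.0%, and with the GC trend removed its log2 ratio was 1.26. A processed pseudogene 95.9% identical over 42.9% of its transcript could share its reads. Snx9 and Snx18, which act with dynamin at the plasma membrane, had 129 and 173.9 TPM and 35.9 and 69.6 TPM, zygote first. Of the 14 others, 13 had a higher TPM in PB2 and 1, Snx27, was equal at 2.0 TPM. This tally depends on the filter, which Snx14 and Snx19 passed through PB2 alone. Left out by it were Snx10, with 0.6 (zygote) and 0 TPM (PB2), and Snx21, with 0.4 and 0.5 TPM. With centred ratios 10 of the 14 were above 0 and with the GC trend removed 8. Snx11 had 10.4 (zygote) and 25.9 TPM (PB2), a log2 ratio of 1.24, with 16.2% of its exon bases under an antisense gene. Snx19 had 0.9 and 3.0 TPM, a log2 ratio of 1.07. Snx16 was the most abundant of them, with 84 and 129 TPM, followed by Snx3, which works with retromer on other cargo, with 74.9 and 110.4 TPM.

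The AP adaptors link cargo to vesicle coats, and each is a complex of 4 subunits. Of the 21 AP genes, 5 passed 2-fold towards PB2 and 0 towards the zygote, 23.8% and 0% where the table had 18.9% and 8.09%. Among the 5 was Ap5z1, which passed the filter at 1 TPM through PB2 alone. The median log2 ratio of the 21 genes was 0.46, 0.25 when centred and 0.30 with the GC trend removed. In AP-3, which sends cargo to lysosomes and related organelles, Ap3d1 (δ subunit) had 12.7 (zygote) and 44.2 TPM (PB2) and Ap3b1 (β subunit) had 24.6 and 60.9 TPM. Their log2 ratios were 1.72 and 1.27, and with the GC trend removed 1.03 and 1.14, so both large subunits stayed past 2-fold. The medium subunits differed in direction, with 109.3 (zygote) and 67.3 TPM (PB2) for Ap3m1 and 14.5 and 29.4 TPM for Ap3m2. Of Ap3m1, 29.8% of the exon bases overlap Vcl on the opposite strand. The small subunit gene Ap3s1 had 104.6 and 144.3 TPM, with processed pseudogenes 99.1% identical over 38.1% of its transcript.

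In AP-1, the adaptor of the Golgi and recycling endosomes, 6 of 7 genes had a higher TPM in PB2. The medium subunits were the most abundant, with 56.7 (zygote) and 115.2 TPM (PB2) for Ap1m1 and 76 and 120.2 TPM for Ap1m2. Ap1m1, with a log2 ratio of 1.01, was the member just past 2-fold on the scale with the pseudocount, and Chmp7, at 0.98, was the nearest below it. The order depends on the pseudocount, since the plain ratio of TPM was 2.03 for Ap1m1 and 2.13 for Chmp7. Ap1s2, the member lowest in GC content at 35.4%, had 11.4 and 10.8 TPM. In AP-2, the adaptor of uptake from the surface, Ap2s1 had 199.1 and 169.2 TPM, Ap2m1 48.2 and 79.9 TPM and Ap2b1 11.3 and 14.2 TPM, none past 2-fold. Of its α subunits, which the symbols of the members do not cover, Ap2a1 had 0.8 and 5.2 TPM, a log2 ratio of 1.78 that was 0.86 with the GC trend removed, and Ap2a2 had 1.0 and 1.3 TPM. The σ subunit Ap2s1 was over 10 times the β subunit Ap2b1 in each library. A processed pseudogene 99.7% identical over 44.5% of the Ap2m1 transcript could share reads with Ap2m1. In AP-5, an adaptor of late endosomes, Ap5z1 had 0.1 (zygote) and 1.4 TPM (PB2) beside the values of Ap5s1 above. Rounding allows a PB2/zygote ratio of Ap5z1 between 9.0 and 29, and its log2 ratio of 1.13 rests on values near the lowest that the table holds. Ap5m1 had 26.3 and 19.9 TPM. In AP-4, Ap4s1 had 13.8 and 8.5 TPM, a log2 ratio of -0.64, and Ap4e1 had 1.7 TPM in both.

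Clathrin and the epsins were higher in PB2 throughout, 5 of 5 genes, and on the centred scale too, while 4 of 5 were with the GC trend or the length trend removed. Epn2 was the most abundant member in PB2, with 175.6 (zygote) and 392.2 TPM (PB2), a log2 ratio of 1.15. Its paralogue Epn1 had 2.5 and 10.7 TPM, a log2 ratio of 1.74, and the highest GC content of the members at 62.5%. Epsins bend the membrane and bind ubiquitinated cargo at clathrin pits. The clathrin chains differed less, with 30.8 and 37.3 TPM for the heavy chain gene Cltc and 21.8 and 30.7 TPM for Clta and 20.4 and 32.7 TPM for Cltb, the light chains. Vps72, which carries a Vps name but encodes a subunit of chromatin complexes that deposit the histone variant H2A.Z, had 72 (zygote) and 173.7 TPM (PB2), a log2 ratio of 1.26.

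Paralogues allow a comparison between genes of similar product. Of 19 pairs with both genes compared, 5 had log2 ratios on opposite sides of 0 and 3 differed by more than 1 on the log2 scale. These 3 were Ap3m1 and Ap3m2 (-0.69 and 0.97), Snx1 and Snx2 (0.54 and -0.70) and Chmp2a and Chmp2b (-1.32 and -0.13). In 13 of the 19 pairs the gene with the higher log2 ratio had the higher GC content, and Chmp2a and Chmp2b were among the others. The most alike were Stam and Stam2, which differed by 0.04.

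Other genes of the pathway that the symbols do not cover were taken from a list of 85, of which 77 were in the table and 75 were compared. Of these, 18 passed 2-fold towards PB2 and 4 towards the zygote, 24.0% and 5.33% where the table had 18.9% and 8.09%, with a median log2 ratio of 0.20, close to the 0.21 of all genes. Of the 10 Commd genes and Ccdc93, whose products form a complex that works with retriever, 9 of 11 had a higher TPM in the zygote, with a median of -0.60, which was -0.81 on the centred scale and -0.62 with the GC trend removed. Commd6 had 68.9 (zygote) and 17.2 TPM (PB2), a log2 ratio of -1.94, and Commd10 had 49 and 17.4 TPM, a log2 ratio of -1.44. Synj1, the phosphatase that helps clathrin coats come off, had 48.1 and 22 TPM, a log2 ratio of -1.09. Vps35l and Vps26c, the subunits particular to retriever, thus stood on the other side of 0 from most COMMD genes. With the GC trend removed Vps35l remained there (0.34) and Vps26c did not (-0.03). Vps29, the subunit that retriever shares with retromer, lay on the side of the zygote at -1.22. The 3 retriever genes together had 64.3 (zygote) and 47.7 TPM (PB2).

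Higher in PB2 among the clathrin accessory genes were Dnm2, which encodes the dynamin that cuts vesicles free, with 5.1 (zygote) and 19.1 TPM (PB2), and Clint1, with 7.2 and 18 TPM. Gga3 had 7.6 and 18.2 TPM, Tom1l2 9.6 and 20.4 TPM, and Tollip 16 and 34 TPM. Of the 10 further ESCRT genes and regulators compared, 6 had a higher TPM in PB2 and 4 in the zygote. Their summed TPM was higher in the zygote, 390.8 against 347.4. Among those past 2-fold in PB2, Mvb12b, a further ESCRT-I subunit, had 12.8 and 31.4 TPM. Cc2d1a, which binds CHMP4 proteins, had 4.7 and 15 TPM, and Ptpn23, an ALIX relative, 4.6 and 12 TPM. These 8 named clathrin accessory and ESCRT genes had log2 ratios between 1.01 and 1.72. With the GC trend removed 1 of them, Clint1 (1.13), stayed past 2-fold while the other 7 lay between 0.33 and 0.90. Ccz1 (18.6 and 50.6 TPM) and Mon1b (5.3 and 12.2 TPM), which together with other subunits activate RAB7 on maturing endosomes, were also past 2-fold in PB2. So were Rubcn (44.3 and 115.5 TPM), Mtmr4 (12.9 and 31.1 TPM) and Becn1 (6.7 and 15.5 TPM), all tied to the endosomal lipid phosphatidylinositol 3-phosphate. With the GC trend removed Ccz1 (1.47) and Becn1 (1.16) stayed past 2-fold, and Mon1b (0.65), Rubcn (0.74) and Mtmr4 (0.94) did not. Pik3c3, the gene of the kinase that makes this lipid, had 17.8 and 9.2 TPM, a log2 ratio of -0.88. Pik3r4, listed in the same class, lay on the other side, with 10.7 and 21.3 TPM and a log2 ratio of 0.93. With the GC trend removed the log2 ratios were -0.99 for Pik3c3 and 0.44 for Pik3r4. Of the 11 endosomal phosphoinositide kinase and phosphatase genes compared, 7 had a higher TPM in PB2 and 4 in the zygote. Of the receptors that this machinery sorts, Lrp1 had 3.0 (zygote) and 16.7 TPM (PB2), a log2 ratio of 2.15, or 1.29 with the GC trend removed. The transferrin receptor gene Tfrc, with 6.9 and 1.9 TPM, had a log2 ratio of -1.45. Ap2a1, Ap2a2, Hip1r, Pik3c3, Pik3r4 and Tfrc were named after their values were seen.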

How the data were processed

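RNA-seq of PB2 and of the zygote was analysed, with 1 library each. According to the supplementary methods and the submitters' processing notes, the authors aligned reads with HISAT2 2.0.4, counted them per gene with HTSeq 0.6.1p1 on an Ensembl annotation, and used DESeq2 1.18.1. The notes name both OryCun2.0, a rabbit assembly, and GRCm38, and all gene identifiers are mouse. The values the authors deposited are TPM, rounded to 1 decimal. How these were derived from counts is not given in the sources used here, and their depth is unknown. The PB2 column carries the polar body's name, and the remaining column was taken as the zygote, so 0 value columns were left over.

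Genes with at least 1 TPM in either library were compared by log2 ratio with a pseudocount of 1. Transcript GC content and length come from the longest protein-coding transcript in GENCODE M21 (GRCm38), found for all 102 members. Trends were fitted by loess (span 0.3) over all genes. The fit was tried beforehand on made-up libraries with a linear GC trend, scored on genes of at least 10 TPM in the zygote. Genes of lower TPM and the length trend were not covered by that trial. Near-identical copies were sought with BLAST 2.17.0 (at least 95% identity over 200 bases). Members, role classes, pairs and lists were chosen with earlier results of these data known. Named in each class were the members at least 2-fold apart, the most abundant, and those with the highest and lowest log2 ratio, with pairs and small complexes in full where useful, and in the pathway list those past 2-fold that reached 10 TPM in either library. No row of the table was found for 19 genes of the role list, such as Vps25, Vps28 and Vps18, which were not analysed here. Alternatives were other pseudocounts, filters, scalings, thresholds and trend removal. Python 3.11.15, pandas 2.3.3 and statsmodels 0.14.6 were used.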

Additional observations from a re-analysis of the deposited data

How the results depend on the processing

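No paired analysis was possible because PB2 and zygote were sequenced as 1 library each, and no replicate could be left out. Beside the 17 members higher in PB2 and 5 in the zygote at 2-fold, centring gave 11 and 10, removal of the GC trend 8 and 6, removal of the length trend 8 and 12, a threshold of 1.5-fold 37 and 17 (among all genes, 34.3% and 18.2%), and one of 4-fold 0 and 1 (Vps41), with 2.48% and 0.695% among all genes. Both changes with the threshold follow from it, centring lowers every log2 ratio by 0.21, and for the trends the cause was not tested. Pseudocounts of 0.1 and 0.01 each gave 25 and 7 (among all genes, 24.7% and 10.4%), no filter 17 and 5, a filter at 5 TPM 15 and 5, and rescaling after mitochondrial genes and the 50 highest genes were taken out 16 and 5. The median log2 ratio of the members, 0.35, was 0.14 when centred, 0.087 with the GC trend removed and 0.073 with the length trend removed, where the median of all genes, 0.21, was 0, 0.0098 and 0.0029. Of the values of single genes and classes under the alternatives, 391 stayed within 0.5 on the log2 scale and 23 moved by more, and no gene past 2-fold changed sign. The count of 391 is partly fixed in advance and is no measure of how firm the values are. A filter cannot change the log2 ratio of a single gene, and centring shifts each value by the same 0.21. Vps41 stayed between -3.01 and -2.58. Removal of the GC trend moved Vps37c from 1.36 to 0.51, a pseudocount of 0.01 moved Ap5z1 from 1.13 to 3.68, and the filter at 5 TPM moved the median of the sorting nexins with a BAR domain from 0.00 to 0.57. Counting error limits genes of a few TPM by an amount that cannot be given.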

Other observations

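Coding sequence alone moved with the log2 ratio about as closely as the whole transcript, with Spearman's rho of 0.55 over the 98 members for its GC content and 0.50 for GC content at the last base of codons, against 0.47 and 0.40 over 10606 genes. With the length of the 3′ untranslated region rho was -0.00 over the members and 0.11 over the table. These are descriptions across genes of the same 2 libraries.

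After the GC trend was removed, 3 members passed 2-fold in PB2 that had not before. They were Ap1s3 (4.8 TPM in the zygote, 8.9 TPM in PB2), Snx13 (13.0 and 23.6 TPM) and Snx14 (0.4 and 1.6 TPM). Ap2s1 (199.1 and 169.2 TPM) and Vps53 (3.8 and 1.8 TPM) did so in the zygote. Of the members, 34 share exon bases with another gene of the annotation and 13 have a near-identical copy, and whether this shifted a value was not tested.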
